A study of Mus musculus with 5 samples.

Results

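Bivalent lineage transcription factors outside the Hox clusters were examined here as a list of 53 genes, which encode regulators of ectoderm, mesoderm, endoderm and trophectoderm and are classic Polycomb targets in embryonic stem cells (ESCs). The list is given by gene name and no value of these libraries enters its rule, and 52 of the 53 had a promoter among the 22359 protein-coding promoters tested. Sox1, an early neuroectoderm factor, is not a protein-coding gene of the annotation used and was placed by an exact match of its RefSeq promoter (300 bases) on chromosome 8. Each member was assigned to the germ layer of its best known role, which gave 25 tested members in ectoderm, 17 in mesoderm, 8 in endoderm and 2 in trophectoderm. Histone marks and RNA were not analysed here, so bivalency itself and the expression of the members were not measured.

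Pcgf6 is a subunit of a noncanonical Polycomb repressive complex (PRC1.6) that also holds L3mbtl2, E2f6, Mga and Max. Canonical PRC1 is drawn to chromatin that PRC2 has methylated, and in ESCs such chromatin covers the CpG-rich promoters of developmental regulators, which carry an activating and a repressive mark together. PRC1.6 is better known for germline genes, and Mga with Max recognises the E-box CACGTG.

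The study mapped Pcgf6 by ChIP-seq in CCE cells, an established mouse ESC line, cultured with LIF and serum at fewer than 15 passages and cross-linked with disuccinimidyl glutarate and paraformaldehyde. No cell in these 5 libraries was labelled as treated or genetically changed. Chromatin was pulled down with a Santa Cruz antibody (2 replicates) or an Abcam antibody (2 replicates), and 1 input library without antibody gave the background. The question asked of each promoter was whether Pcgf6 chromatin held a larger share of fragments there than the input did.

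The input held 22800316 fragments and the ChIP libraries between 2288467 and 2848405. The replicates of an antibody were largely the same fragments at 1 of 2 fixed shifts, -1 or -15 bases. With both shifts allowed, 87.9% of Santa Cruz replicate 1 and 88.1% of Abcam replicate 1 lay in replicate 2. Each antibody was therefore treated as a single library, with every shared fragment taken once and the other fragments of both replicates kept. This left 2566425 fragments with Santa Cruz and 3164567 with Abcam. All p-values and intervals therefore cover counting error between libraries and not variation between cultures. Within 2 kb of a transcription start site (TSS) a member had between 46 and 121 input fragments, 3 to 19 Santa Cruz fragments and 4 to 24 Abcam fragments.

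No promoter of the 52 lineage factors passed the adjusted test in any direction. With Santa Cruz 0 of 52 were higher than input where 0.631% of all promoters were, and with Abcam 0 of 52 where 1.11% of all promoters were (one-sided exact binomial test, Benjamini-Hochberg over 22359 promoters). In the other direction the count was 0 of 52 with both antibodies, and 0% of all promoters were lower than input. At an unadjusted p under 0.05, 2 members were higher with Santa Cruz (5.09% of all promoters) and 3 with Abcam (6.39%), while 3 were lower with Santa Cruz (5.99%) and 1 with Abcam (5.56%). The higher ones were Dlx2 and Myod1 with Santa Cruz and Neurog2, Isl1 and En1 with Abcam, and the lower ones Gata4, Nkx2-2 and Olig2 with Santa Cruz and Lhx2 with Abcam, so no gene was on either side with both antibodies. The smallest adjusted p for a higher value was 0.856 with Santa Cruz (Myod1) and 0.107 with Abcam (Neurog2). The depth still set limits on the ratio over the whole ±2 kb window, though not on a narrower site inside it. Within 0.5 kb of the TSS, for example, the Abcam ratio of En1 was 4.19 (1.87 to 9.01), from 12 fragments against 20 in the input. This was the highest ratio of any member in that window, which was added after values were seen. The Santa Cruz ratio of En1 there was 0.862 (0.0977 to 3.55), from 2 fragments. Over ±2 kb, the 95% interval of the Santa Cruz ratio ended below 3 at 51 of 52 members and below 4 at all 52. With Abcam the interval ended below 3 at 49 of 52 and below 4 at all 52. It ended below 2 at 37 members with Santa Cruz and at 25 with Abcam.

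**Figure D1:**
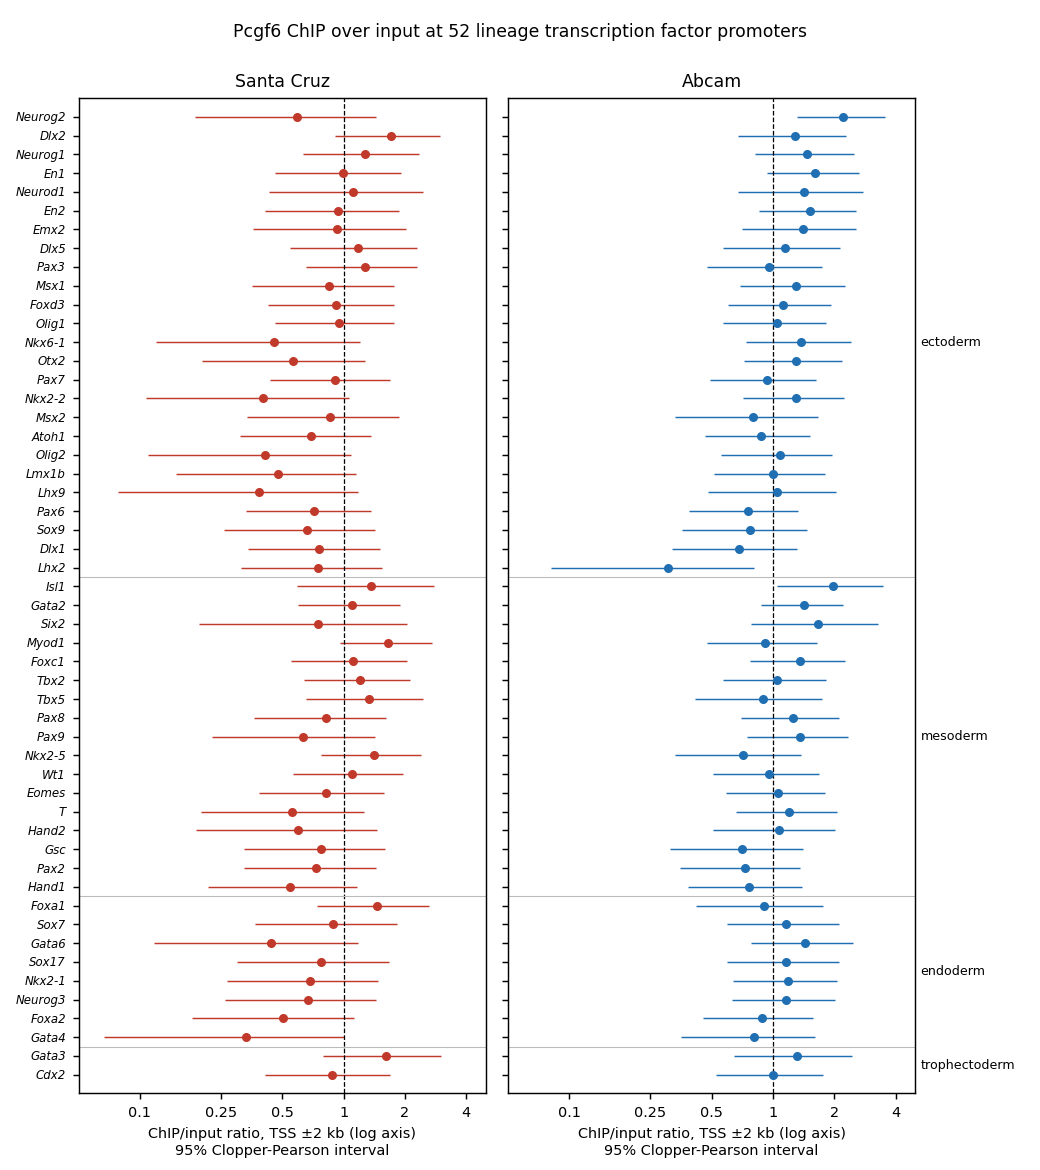
ChIP/input ratio of the 52 members within 2 kb of the TSS (x axis, log scale) for Santa Cruz and Abcam, 1 row per gene grouped by germ layer, with 95% Clopper-Pearson intervals. Nearly all intervals cross 1. With Santa Cruz 15 of 52 points lie over 1, and with Abcam 32 of 52.

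Over ±2 kb the list had a summed ratio below 1 with Santa Cruz and above 1 with Abcam. Summed over the 52 members, 455 Santa Cruz fragments against 4519 input fragments gave a ChIP/input ratio of 0.868 (95% interval 0.786 to 0.956), and 711 Abcam fragments gave 1.10 (1.01 to 1.19). The median ratio of a member was 0.819 with Santa Cruz and 1.10 with Abcam, beside 0.901 and 0.947 over all promoters. A ratio over 1 was found at 15 of 52 members with Santa Cruz (39.7% of all promoters) and at 32 of 52 with Abcam (42.9%). The Abcam ratio was above the Santa Cruz ratio at 37 of 52 members, where 51.4% of all promoters were on that side. Over the list, Abcam fragments were 1.27 times the Santa Cruz fragments after scaling (1.13 to 1.43), beside 1.05 over all promoters, 1.07 over CpG-rich promoters and 1.13 over Hox genes. Over 56 other genes of the same transcription factor families the value was 1.18 (1.05 to 1.33), and this interval overlapped that of the list. These values depend on the window and the scaling. The Abcam ratio of the list was 0.998 over ±5 kb and 0.950 over ±10 kb, and the Santa Cruz ratio was 0.964 (0.873 to 1.06) when scaled by the median promoter in place of library totals. The Santa Cruz interval also included 1 over ±1 kb (0.946, 0.831 to 1.07) and for the members with a role in 1 layer only (1.01, 0.870 to 1.18). By gene, 0 of 52 members differed between the antibodies after adjustment (two-sided exact binomial test, 0.00894% of all promoters higher with Abcam and 0% lower), and 3 were higher with Abcam at an unadjusted p under 0.05 (1.48% of all promoters) and 0 lower (0.944%).

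By germ layer, the ectoderm factors had a summed ratio of 0.820 with Santa Cruz (0.707 to 0.947) and 1.12 with Abcam (0.992 to 1.25). The mesoderm factors had 0.972 (0.826 to 1.14) and 1.08 (0.941 to 1.24). The endoderm factors had 0.708 (0.527 to 0.932) and 1.09 (0.874 to 1.34). The trophectoderm pair, Gata3 and Cdx2, had 1.17 (0.714 to 1.83) and 1.12 (0.711 to 1.70). The intervals of the 4 layers overlapped with either antibody, and their order depended on the window. Over ±1 kb the Abcam ratios were 1.20 for ectoderm, 1.03 for mesoderm, 0.993 for endoderm and 1.66 for trophectoderm, and over ±5 kb the Santa Cruz ratio of endoderm was 0.895, above that of ectoderm (0.789). Many members act in more than 1 layer. Over the 11 factors with a role in ectoderm only, the ratios were 0.885 and 1.20, and over the 7 with a role in mesoderm only they were 1.16 and 1.08. Foxa1, the 1 member with a role in endoderm only, was at 1.46 and 0.908.

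By protein family, the summed Abcam ratio was highest for the 4 GATA zinc finger genes, 1.26 (0.944 to 1.66), and for the 9 homeobox genes of the DLX, MSX, EMX, OTX and engrailed kinds, 1.22 (1.001 to 1.47). Their Santa Cruz ratios were 0.867 and 0.958. The 10 bHLH genes, which include the neurogenins, had 1.15 with Abcam (0.958 to 1.37) and 0.847 with Santa Cruz (0.671 to 1.06). The 6 paired box genes had 0.972 and 0.837, and the 4 LIM homeobox genes 0.979 and 0.702. The Abcam ratio was above the Santa Cruz ratio in each of these families, and the intervals of the families overlapped.

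Among ectoderm factors, Neurog2, a proneural factor of cortex and sensory neurons, had the highest Abcam ratio of all members. Its Santa Cruz replicates had 4 and 5 fragments, its Abcam replicates 20 and 21, and the input 73. Pooled, the ratio was 0.590 with Santa Cruz (0.186 to 1.44) and 2.20 with Abcam (1.32 to 3.56). Both Abcam replicates stood above the input and both Santa Cruz replicates below it, but since the replicates share fragments this is 1 difference and not 2. For the Abcam value the exact binomial p was 0.00149 before adjustment and 0.107 after it, and for the difference between antibodies it was 0.00545 before and 1 after. Its paralogue Neurog1 was at 1.28 with Santa Cruz (0.634 to 2.35) and 1.47 with Abcam (0.815 to 2.50). The forebrain interneuron factor Dlx2 was the ectoderm member with the highest Santa Cruz ratio, 1.70 (0.908 to 2.99), from 15 fragments in both replicates against 76 in the input, and had 1.29 with Abcam (0.672 to 2.30). Over ±5 kb the Abcam ratio of Dlx2 was 0.606. Dlx1, which lies 18641 bp away and is expressed in the same neurons, was below the input with both antibodies (0.761 and 0.685). En1, a mid-hindbrain factor, had 9 and 8 Santa Cruz fragments, 19 and 20 Abcam fragments and 87 input fragments, which gave 0.991 (0.459 to 1.91) and 1.61 (0.936 to 2.64). Over ±10 kb its Abcam ratio was 0.809.

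At the low end of the ectoderm list stood Lhx2, a forebrain and eye factor. Its Santa Cruz replicates had 6 and 7 fragments, its Abcam replicates 4 each, and the input 92. The ratio was 0.750 with Santa Cruz (0.314 to 1.54) and 0.304 with Abcam (0.0811 to 0.805), and the one-sided exact binomial p of the Abcam value was 0.00511 before adjustment and 0.693 after it. Lhx2 was also the member whose ratio over both antibodies together was the lowest. Nkx2-2, a factor of ventral neural tube and islets, had 4 and 3 Santa Cruz fragments but 14 and 16 Abcam fragments against 86 in the input, with ratios of 0.401 (0.107 to 1.06) and 1.30 (0.712 to 2.23). Sox9, a neural crest and cartilage factor, was at 0.663 and 0.768. For Sox1, placed by sequence, 12 Santa Cruz and 13 Abcam fragments against 79 in the input gave 1.31 (0.649 to 2.42) and 1.15 (0.587 to 2.08).

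Among mesoderm factors, Isl1, which acts in the second heart field and in motor neurons, had the highest ratio over both antibodies together. Its Santa Cruz replicates had 8 fragments each, its Abcam replicates 11 and 15, and the input 57. The ratios were 1.36 with Santa Cruz (0.592 to 2.77) and 1.96 with Abcam (1.05 to 3.46). All 4 ChIP libraries were above the input in this window, but since replicates share fragments these are 2 readings and not 4. Over ±1 kb the Santa Cruz ratio was 0.884. The one-sided exact binomial p of the Abcam value was 0.0172 before adjustment and 0.476 after it. Hand1, a factor of heart and trophoblast giant cells, was lowest in mesoderm over both antibodies together, at 0.549 with Santa Cruz and 0.763 with Abcam. T (Brachyury), the primitive streak factor, was at 0.556 with Santa Cruz (0.201 to 1.26) and 1.20 with Abcam (0.663 to 2.06). The window of Gsc, the organizer factor Goosecoid, overlaps that of another annotated gene whose TSS lies 1161 bp away, so its ratios of 0.775 and 0.707 cannot be given to 1 of them. T and Gsc fall outside the naming rule and were chosen after their values were seen.

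Among endoderm factors, Foxa1 was highest with Santa Cruz, with 12 fragments in both replicates against 77 in the input, a ratio of 1.46 (0.742 to 2.64), and 0.908 with Abcam (0.419 to 1.76). Foxa2, its relative in endoderm, node and floor plate, was at 0.502 (0.180 to 1.13) and 0.882 (0.454 to 1.58). Gata4 and Gata6, which drive primitive endoderm, had the lowest Santa Cruz values of the layer. Gata4 had 2 and 3 Santa Cruz fragments, 7 and 8 Abcam fragments and 78 input fragments, with ratios of 0.332 (0.0669 to 1.01) and 0.807 (0.356 to 1.61). Gata6 had 3 Santa Cruz fragments in each replicate, 14 and 13 Abcam fragments and 78 input fragments, with ratios of 0.442 (0.118 to 1.18) and 1.43 (0.781 to 2.48). Both were below the input with Santa Cruz, and they were on opposite sides of it with Abcam. In trophectoderm, Gata3 was at 1.62 with Santa Cruz (0.794 to 3.02) and 1.31 with Abcam (0.644 to 2.45), and Cdx2 at 0.880 and 0.999.

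Several of these values depended on the width of the window. Gata3 was at 0.916 with Santa Cruz over ±10 kb and at 0.929 with Abcam over ±5 kb, and Cdx2 at 1.61 with Abcam over ±1 kb. Neurog2 was at 1.03 with Santa Cruz over ±5 kb, and at 1.27 with Abcam over ±10 kb. Neurog1 was below 1 with Santa Cruz over ±1 kb, Foxa1 at 0.993 with Santa Cruz over ±10 kb and Gata4 at 1.17 with Abcam over ±1 kb, so with that antibody these genes were not on 1 side of the input in every window. Without turning direction, Lhx2 was at 0.608 with Abcam over ±5 kb, and the low Santa Cruz ratios were higher in wider windows, 0.722 at Gata6 over ±5 kb, and 0.611 at Gata4, 0.876 at Nkx2-2 and 0.894 at Foxa2 over ±10 kb.

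**Figure D2:**
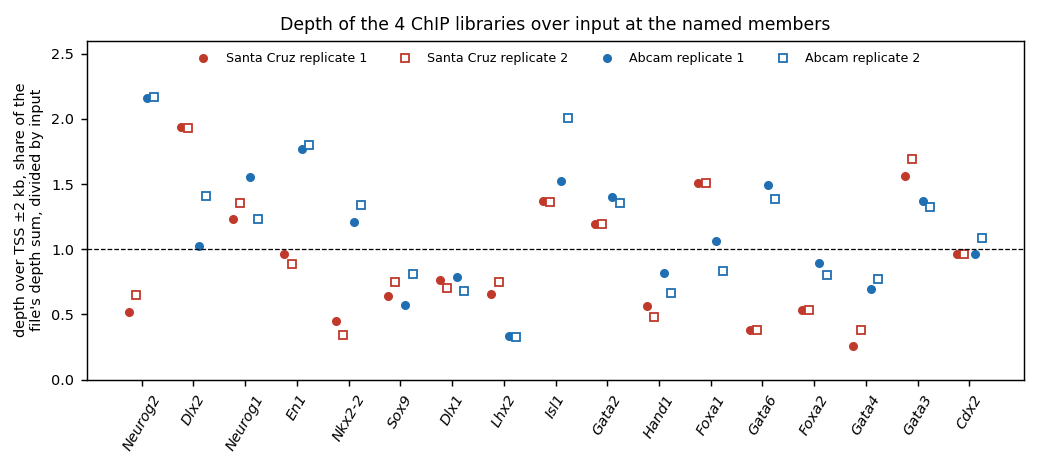
Depth of each of the 4 ChIP libraries over TSS ±2 kb at the 17 members named by rule, as a share of the depth sum of its file divided by the same share of the input (y axis). Replicates of an antibody (filled and open symbols) lie close together since they share most fragments. Abcam lies above Santa Cruz at Neurog2, Gata6, Nkx2-2, En1 and Gata4, among others, and below it at Foxa1 and Lhx2, among others. No member differed between the antibodies after adjustment.

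The deposited depth itself, taken over the same windows as a share of the depth sum of each file, gave the same picture as the fragments. Over the 52 members the median depth ratio to input was 0.854 and 0.861 for Santa Cruz (replicates 1 and 2) and 1.07 and 1.09 for Abcam. The lowest and highest members were at 0.254 and 1.94 in Santa Cruz replicate 1, and at 0.337 and 2.16 in Abcam replicate 1. The Neurog2 window held 3.35 ppm of the input depth, 1.75 and 2.17 ppm of the Santa Cruz depth and 7.23 and 7.26 ppm of the Abcam depth. The Gata6 window held 3.47 ppm of the input depth, 1.31 ppm of the depth in both Santa Cruz replicates and 5.17 and 4.80 ppm of the Abcam depth.

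The list was then set beside other gene groups measured the same way. The 56 other genes of the same transcription factor families had summed ratios of 0.898 with Santa Cruz (0.816 to 0.986) and 1.06 with Abcam (0.979 to 1.15), and their intervals overlapped those of the members. The 39 Hox genes had 0.816 (0.733 to 0.907) and 0.926 (0.844 to 1.01), with 0 of 39 passing the adjusted test with either antibody. The 20 germline genes had 3.10 (2.78 to 3.46) and 3.04 (2.74 to 3.37), and 11 of them passed with Santa Cruz and 12 with Abcam. The germline genes were chosen with earlier results of these libraries known. Calls among them were therefore foreseen, and do not measure how well the test finds ratios as low as those of the members. The median was 60.5 input fragments per germline promoter, beside 88 for the lineage factors.

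**Figure D3:**
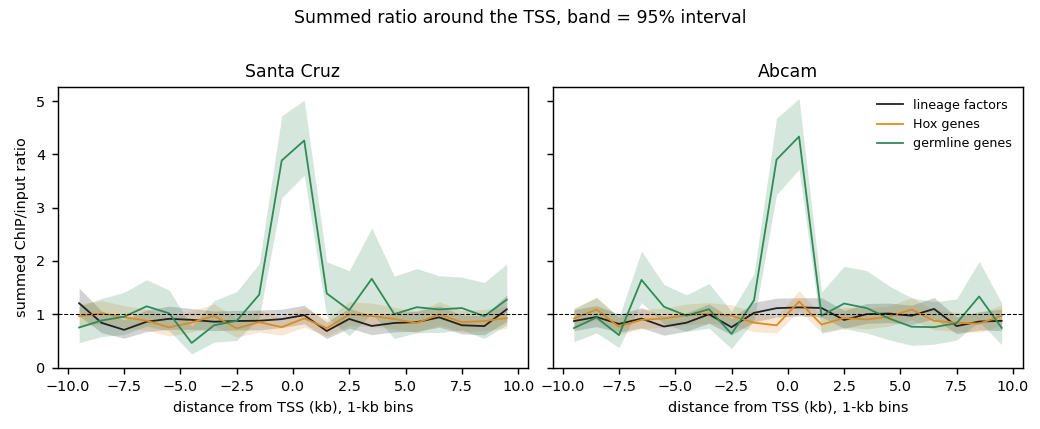
Summed ChIP/input ratio in 1-kb bins of distance from the TSS (x axis, kb) for the 52 lineage factors, the Hox genes and the germline genes, with 95% intervals as bands, for each antibody. Germline genes rise over the TSS with both antibodies, and the bins of the lineage factors lie between 0.685 and 1.21 (Santa Cruz) or 0.757 and 1.13 (Abcam).

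Along the distance from the TSS the bins of the list lay between 0.685 and 1.21 with either antibody. None reached the ratios of the germline genes at the TSS. In 1-kb bins the Abcam ratio was 1.11 just upstream of the TSS (0.949 to 1.30) and 1.13 just downstream (0.969 to 1.31), and in the bins beyond 2 kb it ranged from 0.757 to 1.10. With Santa Cruz the ratio was 0.909 just upstream (0.748 to 1.09) and 0.983 just downstream (0.821 to 1.17), 0.685 from 1 to 2 kb downstream (0.545 to 0.852), and from 0.707 to 1.21 beyond 2 kb. A window of ±0.5 kb was added after these values were seen. There the list had 154 Santa Cruz, 222 Abcam and 1301 input fragments, with ratios of 1.02 (0.858 to 1.21) and 1.19 (1.03 to 1.38), beside 0.914 and 1.01 over all promoters. The central Abcam ratio was 1.39 for ectoderm factors (1.13 to 1.69) and 0.939 for mesoderm factors (0.710 to 1.22), and these intervals overlapped. Single ectoderm factors ranged from 0.318 to 4.19 and endoderm factors from 0.333 to 1.69. In trophectoderm, Cdx2 was at 1.91 and Gata3 at 1.27. The difference between layers was not tested.

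CpG content and sequence motifs were used to ask what the members share. CpG-rich promoters made up 38 of 52 members (73.1%) and 44.2% of all promoters, and 37 of 56 other genes of the same families (66.1%). The CpG-rich members had ratios of 0.874 with Santa Cruz and 1.16 with Abcam (1.05 to 1.27), and the other 14 had 0.852 and 0.954 (0.810 to 1.12). CpG-rich promoters of all genes had 0.946 and 1.01. The E-box CACGTG, which reads the same on both strands and was counted once per place, lay within the 300 bases from 250 upstream of the TSS at 7 of 52 members (13.5%), beside 7.70% of all promoters and 11.0% of CpG-rich ones. Over ±2 kb it was found at 18 of 52 (34.6%), beside 42.3% of all promoters. The E2F6 core GCGGGAA, searched on both strands, lay in the 300 bases of Olig2 only (5.67% of all promoters), and the T-box factor site AGGTGTGA in those of Lhx9 only (1.13%). None of the 3 motifs contains another. Over ±2 kb the E2F6 core was found at 25 of 52 members (48.1%), beside 25.3% of all promoters and 39.6% of CpG-rich ones. The 56 other genes of the same families had it at 27 (48.2%), so this share was not particular to the members. An E-box in the 300 bases was found at 2 of these 56 (3.57%) and at 8 of 39 Hox genes (20.5%).

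Of the 7 members with an E-box in the 300 bases, Neurod1, Wt1, Nkx2-2 and Foxd3 had 1 and Dlx2, En1 and En2 had 2. A pair was thus present at 5.77% of members, beside 0.707% of all promoters and 1.21% of CpG-rich ones. The upstream stretches that hold the pairs are given here, 5′ to 3′ on the strand of the gene, with the E-boxes in capitals. They were read from NCBIM37 (mm9) at chr2:71384812-71384993 (minus strand) for Dlx2, chr1:122498849-122498951 (plus strand) for En1 and chr5:28492091-28492213 (plus strand) for En2, and lie in no annotated exon.
Dlx2: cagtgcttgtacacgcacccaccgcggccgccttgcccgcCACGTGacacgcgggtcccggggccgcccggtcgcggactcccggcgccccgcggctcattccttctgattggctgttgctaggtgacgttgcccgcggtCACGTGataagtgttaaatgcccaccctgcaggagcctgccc
En1: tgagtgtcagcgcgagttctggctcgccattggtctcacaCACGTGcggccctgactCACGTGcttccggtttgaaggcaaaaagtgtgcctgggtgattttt
En2: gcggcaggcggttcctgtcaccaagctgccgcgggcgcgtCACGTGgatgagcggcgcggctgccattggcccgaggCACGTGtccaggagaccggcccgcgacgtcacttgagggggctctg
The first bases of the E-boxes lie at -142 and -42 from the TSS in Dlx2, at -106 and -89 in En1, and at -105 and -68 in En2.

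Within 0.5 kb of the TSS, Dlx2 had 9 Santa Cruz, 9 Abcam and 31 input fragments, with ratios of 2.50 (1.05 to 5.38) and 2.03 (0.850 to 4.37). En2, the second engrailed factor of the mid-hindbrain, had 7, 10 and 24 fragments, with ratios of 2.51 (0.915 to 6.01) and 2.91 (1.24 to 6.32). En1 had 2, 12 and 20 fragments, with ratios of 0.862 (0.0977 to 3.55) and 4.19 (1.87 to 9.01). The ratios of Dlx2 and En2 were above 1 with both antibodies and that of En1 with Abcam, and the intervals of Dlx2 with Santa Cruz and of En2 and En1 with Abcam excluded 1. Summed over these 3 genes the central ratio was 2.07 with Santa Cruz (1.16 to 3.50) and 2.89 with Abcam (1.84 to 4.45). Over the 158 promoters of all genes with 2 or more E-boxes, which include the 3, it was 1.37 (1.26 to 1.48) and 1.59 (1.49 to 1.70). The 4 members with 1 E-box had 1.57 (0.892 to 2.61) and 1.20 (0.672 to 2.02), and the 45 members without one had 0.903 (0.740 to 1.09) and 1.08 (0.915 to 1.27). The groups lay closer together over ±2 kb. There the 7 members with an E-box had 1.01 (0.772 to 1.30) and 1.30 (1.05 to 1.60). The 45 without one had 0.847 (0.761 to 0.941) and 1.07 (0.981 to 1.17), and the intervals overlapped. The motif was chosen in the knowledge of earlier results of these libraries, En2, Neurod1, Wt1 and Foxd3 were named after their values were seen, and the difference between these groups of members was not tested.

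**Figure D4:**
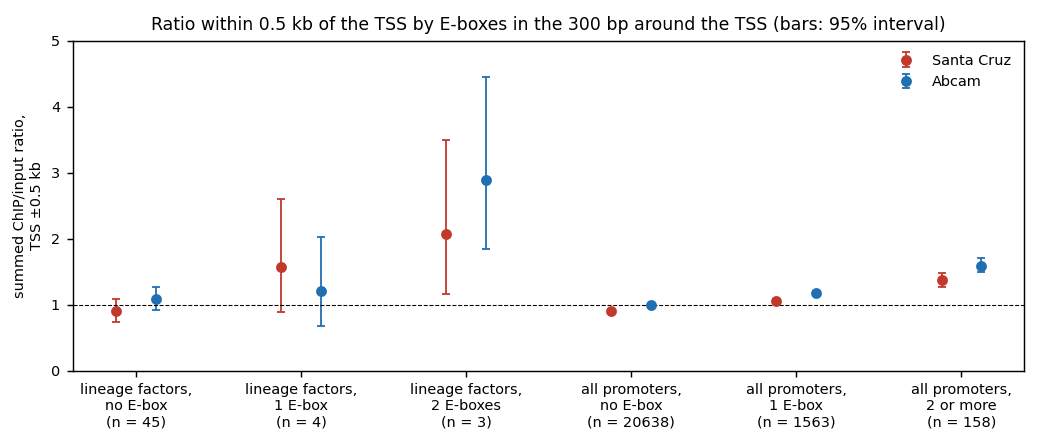
Summed ChIP/input ratio within 0.5 kb of the TSS (y axis) by the number of E-boxes in the 300 bp around the TSS, for lineage factors and for all promoters, with 95% intervals. Lineage factors without an E-box lie at 0.903 with Santa Cruz and 1.08 with Abcam, and the 3 with a pair at 2.07 and 2.89. The 0.5 kb window was chosen after seeing the data.

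Peaks were sought by a Poisson test in windows of 600 bp against the local input rate, with the p cutoff of 1e-05 used in the study. The study called its peaks with MACS, so the counts here are not its peak calls. Within 2 kb of the TSS, 0 of 52 members had a Santa Cruz peak (1.42% of all promoters) and 1 had an Abcam peak (2.42%). Within 10 kb the counts were 0 of 52 with Santa Cruz (1.98%) and 2 of 52 with Abcam (3.31%). The 2 members were Gata2 and Neurog2.

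The Gata2 peak had the smallest p of any window near a member. Gata2 directs blood stem and progenitor cells, and the peak, at chr6:88139951-88141000, is centred upstream of the gene, at -3409 bp from its TSS, in no annotated gene. It held 10 fragments of either Santa Cruz replicate, 19 and 21 of the Abcam replicates and 34 of the input. In its best window, 19 Abcam fragments lay where 2.88 were expected from the input (exact Poisson p = 2.95e-10, not adjusted for the windows scanned). The Abcam ratio over the peak was 4.93 (2.80 to 8.57). The peak was called for these Abcam fragments, so the p and the Abcam ratio are a description only. The Santa Cruz ratio, which played no part in calling the peak, was 2.54 (1.12 to 5.25). At the Gata2 promoter itself, TSS ±2 kb, the ratios were 1.10 (0.594 to 1.88) and 1.42 (0.876 to 2.22), and over ±10 kb they were 0.866 and 0.968. The peak is CpG-dense, with 58.2% GC and an observed over expected CpG ratio of 0.748. The middle 300 bases, chr6:88140326-88140625 on the plus strand, are shown since they hold all 3 E-boxes of the peak, in capitals.
Gata2 upstream: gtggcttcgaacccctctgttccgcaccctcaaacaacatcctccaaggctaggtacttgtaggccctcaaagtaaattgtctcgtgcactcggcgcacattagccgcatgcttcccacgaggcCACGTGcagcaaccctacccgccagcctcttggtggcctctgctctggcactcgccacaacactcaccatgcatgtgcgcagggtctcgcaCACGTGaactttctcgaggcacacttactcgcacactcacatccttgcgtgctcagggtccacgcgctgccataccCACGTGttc
Over the genome, 2.92% of 300-base tiles held an E-box and 0.00854% held 3 or more. The tiles were not matched to this CpG-dense peak in GC or CpG content. The 300 bases are shown for their E-boxes, in a peak picked for its p, while the tiles were not selected. These shares are therefore a description and no test.

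The Neurog2 peak, at chr3:127336751-127337650, is centred 1146 bp downstream of the TSS and covers coding and untranslated sequence of the gene. It held 0 fragments of either Santa Cruz replicate, 11 and 12 of the Abcam replicates and 23 of the input. The Abcam ratio was 3.65 (1.65 to 7.64), with 9 fragments in the best window where 1.18 were expected (exact Poisson p = 4.38e-06). The Santa Cruz ratio was 0, with an upper bound of 1.50. The region was called for its Abcam fragments, and the p was not adjusted for the windows scanned. The p, the Abcam ratio and the contrast between the antibodies within the region are therefore a description only. The sequence held 0 copies of the E-box.

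**Figure D5:**
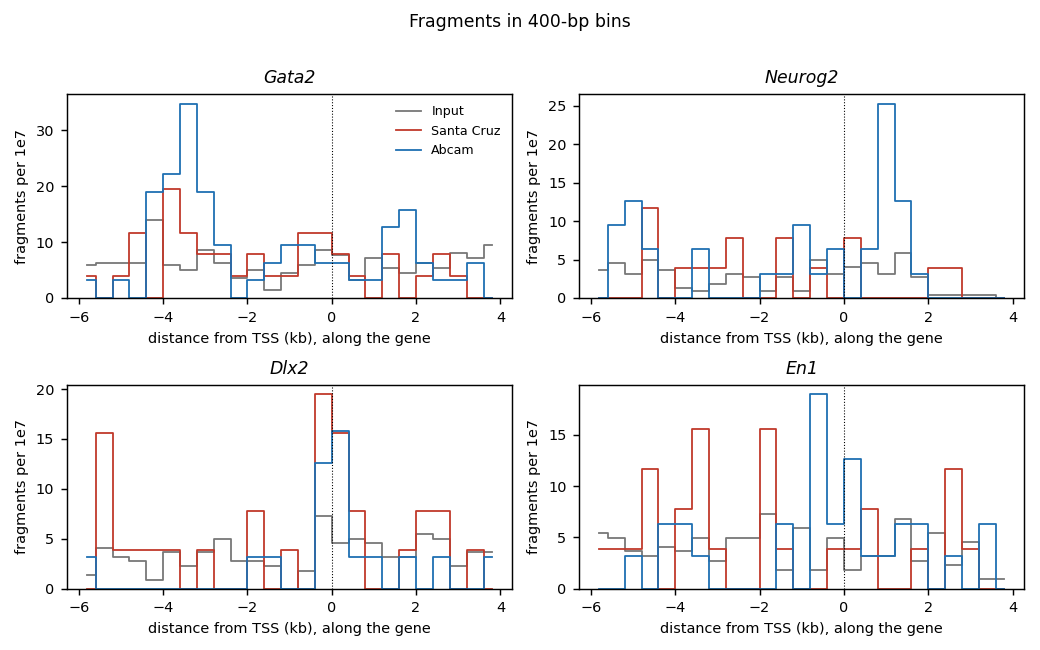
Fragments in 400-bp bins, scaled to 1e7 fragments per library (y axis), against distance from the TSS along the gene (x axis, kb) for the input, Santa Cruz and Abcam at Gata2, Neurog2, Dlx2 and En1. Both antibodies rise over the input 3 to 4 kb upstream of Gata2 and at the TSS of Dlx2, and Abcam alone rises downstream of the TSS of Neurog2.

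At a looser cutoff of 1e-04, the members with a region within 2 kb were Dlx2, Myod1 and Nkx2-5 with Santa Cruz (3 of 52, 2.2% of all promoters), and En2, Neurog2 and Olig1 with Abcam (3 of 52, 3.91%). Together with Gata2 this gave 7 regions, and in each the antibody that had not called it served as a second reading over the same input fragments. At the Dlx2 region, which covers the TSS, Abcam had a ratio of 2.54 (0.979 to 5.93). At the En2 region, also at the TSS, Santa Cruz had 2.35 (0.780 to 5.98). At the regions of Myod1, the skeletal muscle factor, and Nkx2-5, a heart factor, Abcam had 1.23 (0.232 to 4.26) and 0.466 (0.0111 to 3.03). At the region of Olig1, an oligodendrocyte factor, Santa Cruz had 0.575 (0.0665 to 2.26). The Gata2, Dlx2 and En2 regions held 3, 2 and 2 E-boxes, and the Myod1, Nkx2-5, Olig1 and Neurog2 regions held 0. The second antibody had ratios between 2.35 and 2.54 at the 3 regions with E-boxes, and between 0 and 1.23 at the 4 without. The intervals of the 2 kinds of region overlapped, and the motif was chosen with earlier results known. En1, which also has an E-box pair, had no region at this cutoff. Its Santa Cruz ratio within 0.5 kb of the TSS was 0.862 (0.0977 to 3.55). Among the 7 second readings only the Gata2 interval excluded 1, and the difference between the 2 kinds of region was not tested. Myod1, Nkx2-5, Olig1 and En2 were named after their values were seen.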

How the data were processed

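The 5 libraries were Pcgf6 ChIP-seq of CCE ESCs and their input. The values the authors deposited are a coverage signal on mm9, in whole numbers, made from reads lengthened to 300 bp, with neither scaling to depth nor division by the input. Bowtie 0.1.2.7 is named in the submitters' processing notes, while mapping filters and the treatment of duplicates are not given in the sources used here. The depth does not keep strand or read identity, so fragment starts were recovered from its steps (within 1 base) and 1 fragment was kept per position, which lowers the count at very deep positions. Replicates of an antibody were largely the same fragments and were joined. A chi-square per degree of freedom of 0.152 and 0.158 between them, beside 1.01 between the antibodies, showed less than sampling noise.

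A promoter was ±2 kb around the start site that most protein-coding transcripts of a gene use in GENCODE vM1 (on a tie, the upstream one). Ratios were scaled by library totals with exact Clopper-Pearson 95% intervals, and one-sided or two-sided exact binomial tests were adjusted after Benjamini and Hochberg with a threshold of 0.05. Windows of 600 bp in steps of 50 bp were tested against the largest of the genome, 5 kb and 10 kb input rates. Their Poisson p-values were not adjusted for the number of windows. CpG-rich meant over 50% GC and an observed over expected CpG ratio over 0.6 in the 1000 bases around the TSS. Sequences were read from NCBIM37, and Sox1 was placed through the RefSeq promoter table. Members named by rule were those past an adjusted test, the 6 highest and 6 lowest ratios over both antibodies, the highest and lowest of each layer, the 3 with the smallest p between antibodies and those with a peak within 10 kb. The members, gene lists, motifs and germ layers were chosen with earlier results of these data known. Scripts were tested on simulated data. The tools were scipy 1.17.1 and numpy 2.4.6 under Python 3.11.15, with matplotlib 3.10.9 for plots.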

Additional observations from a re-analysis of the deposited data

How the results depend on the processing

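No paired analysis was possible because the replicates of an antibody hold largely the same fragments, so a replicate number marks no separate library. The adjusted count of 0 members was unchanged with windows of ±1, ±5 and ±10 kb, other scaling, the most upstream TSS, an input minimum of 20 fragments, and either replicate left out. It changed only when shared fragments were counted in each replicate, which by construction counts most fragments again. Neurog2 was then higher than input with Abcam (1 member, adjusted p = 0.00463) and differed between antibodies (1 member, adjusted p = 0.0235), and Lhx2 was lower than input with Abcam (1 member, adjusted p = 0.0401), all by the exact binomial test. Over all promoters, this counting gave 382 higher and 469 lower with Santa Cruz, 622 and 353 with Abcam, and 139 that differed between antibodies. With ±10 kb, 92 promoters were higher and 108 lower with Santa Cruz and 140 lower with Abcam, and with ±1 kb 1 differed between antibodies. The summed Santa Cruz ratio of the members was 0.964 when scaled by the median promoter and 1.01 over members of 1 layer only, where mesoderm was 1.16 and endoderm, then Foxa1 alone, 1.46. The summed Abcam ratio was 0.998 with ±5 kb and 0.950 with ±10 kb (ectoderm 0.963), so the list was above the input with Abcam only in the narrower windows. With ±0.5 kb, chosen after seeing the data, it was 1.02 with Santa Cruz (ectoderm 1.10) and 1.19 with Abcam (ectoderm 1.39, mesoderm 0.939). Members with a peak within 2 kb numbered 3 (cutoff 1e-04) and 3 (genome rate only) with Santa Cruz, and 3, 4 and 0 (cutoff 1e-06) with Abcam. Within 10 kb they numbered 3 and 4 with Santa Cruz, and 4, 8 and 1 with Abcam, the last being Gata2. Of 272 alternative ratios at the 17 named members, 2 passed the threshold (Neurog2 and Lhx2, above), 23 lay on the other side of 1 than the value at ±2 kb, and 27 differed from it by over 1.5 times, most of them with another window. With Abcam, leaving out a replicate took Cdx2 to 1.11 and Foxa1 to 1.05, and with Santa Cruz En1 to 1.004. The causes were not tested. At 3 to 24 ChIP fragments per promoter, small differences were not detectable.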
